A study of Mus musculus with 10 samples.

Results

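The 9 genes described here encode core components of the AKT and mTOR pathway: *Akt1*, *Akt2*, *Sgk1*, *Tsc1*, *Tsc2*, *Rheb*, *Mtor*, *Rptor* and *Rictor*. They were taken by name from 46517 Ensembl genes in the count tables, and all 9 were found and passed the filter on low counts in each comparison. They were measured in lymphatic and blood endothelial cells (LECs and BECs) of mouse ear skin, a model of *PIK3CA*-driven lymphatic and vascular malformation. In this tissue PI3K makes a membrane lipid that brings AKT kinases to the plasma membrane, where mTOR complex 2, which contains Rictor, and the kinase PDK1 activate them. AKT then restrains the TSC complex, built on Tsc1 and Tsc2, which otherwise keeps the small GTPase Rheb off. Active Rheb switches on mTOR complex 1, which contains Raptor (*Rptor*) and promotes protein synthesis and growth. SGK1 is a kinase related to AKT that also depends on mTOR complex 2. Most of this control acts on proteins and their phosphorylation, which transcript counts do not measure.

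The mutant mice were 5 *Pik3caH1047R*;*Cdh5-CreERT2* (Cre+) animals. In these mice, 4-hydroxytamoxifen (4-OHT) on the ears at 3 wk of age activates Cre in all kinds of endothelial cell, since *Cdh5* is a pan-endothelial gene, and Cre turns on a *Pik3caH1047R* transgene of chicken sequence. The 2 control mice differed from each other. Control 1 was an untreated wild-type C57BL/6J mouse, bred separately. Control 2 was a Cre- mouse of the *Pik3caH1047R*;*Cdh5-CreERT2* line that had received 4-OHT. Mutants and controls shared the C57BL/6J background, to which the transgenic lines had been backcrossed. All mice were 5 wk old. Cells had been sorted on Podoplanin and CD31, after removal of CD45+, CD11b+, Ter119+ and dead cells, into 9 plates of 384 wells for Smart-Seq2, a full-length method without molecular barcodes. One further control was not analysed here.

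A total of 3248 of 3456 wells were kept. LECs were cells with at least 300 CPM (counts scaled to a common library size) of *Prox1*, *Flt4* and *Mmrn1* together, and more of these than of *Flt1*, *Emcn* and *Podxl*. BECs were the reverse. This gave 1641 LECs, 175 to 367 a mouse, and 1490 BECs, 157 to 330 a mouse. Sums per mouse held 55616045–194353210 reads in LECs and 38402388–99630824 in BECs. The labels describe all wells as sorted LECs, but the plates held both classes. The 5 LEC markers that the rule did not use (*Pdpn*, *Lyve1*, *Ccl21a*, *Reln*, *Fxyd6*) summed to 4544–6596 CPM in LECs and 89.5–627 CPM in BECs, and the 5 such BEC markers (*Cd34*, *Vwf*, *Sox17*, *Ly6c1*, *Nrp1*) to 4590–5239 CPM in BECs and 74.6–688 CPM in LECs. Among LECs, 1048 (63.9%) also had at least 300 CPM of the BEC genes of the rule. No cell name occurred in more than 1 plate.

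Plates of mutants 1–4 carried numbers from 1 series, and those of mutant 5 and both controls numbers from another, so plate series and genotype cannot be fully told apart. Marker genes of other kinds also moved with genotype. The 5 fibroblast markers summed to 15.8–106 CPM in mutant and 193–382 CPM in control LECs, and to 12.8–43.4 and 575–790 CPM in BECs, where 4 of 5 passed the test as lower. The 12 immediate-early genes, which respond to tissue dissociation, summed to 701–1741 CPM in mutant and 2432–3882 CPM in control LECs, with 4 of 12 lower, and to 1486–2749 and 4705–4796 CPM in BECs, with 3 of 12 lower. The 7 cell cycle genes summed to 396–694 CPM in mutant and 70.6–83.7 CPM in control LECs, and all 7 were higher, and to 124–485 and 19.8–35.5 CPM in BECs, with 3 of 7 higher. The 5 mural cell markers summed to 36.0–65.3 CPM in mutant and 94.1–130 CPM in control LECs, and to 156–343 and 496–888 CPM in BECs. The markers of the endothelial classes that the rule did not use also shifted in LECs. Those of LECs summed to 4544–5381 CPM in mutant and 5951–6596 CPM in control mice, and those of BECs to 417–688 and 74.6–303 CPM. The BEC genes of the rule went the other way in LECs, at 480–614 CPM in mutant and 681–689 CPM in control mice. The LEC genes of the rule summed to 3381–5006 and 5273–6026 CPM there. None of these markers was at 0 in all mice, and their part in the results on genotype was not tested.

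*Sgk1* was the most abundant of the 9 transcripts per unit of length in both LECs and BECs. On the scale of CPM per kilobase of exon, *Sgk1* reached 67.0 ± 11.6 in LECs and 100.4 ± 38.2 in BECs (SD, n = 7 mice), and its range overlapped that of no other member in either class. A second tier held *Tsc2* at 27.6 ± 2.08, *Rheb* at 24.5 ± 1.41 and *Akt1* at 21.1 ± 3.82 CPM per kilobase in LECs. The ranges of *Tsc2* and *Rheb*, and of *Rheb* and *Akt1*, overlapped there, so these neighbours were not set apart by the spread between mice. The other 5 genes lay lower in LECs, from *Akt2* at 5.14 ± 1.93 and *Mtor* at 5.04 ± 0.62 down through *Rptor* at 3.79 ± 0.87 and *Rictor* at 2.25 ± 0.61 to *Tsc1* at 2.02 ± 1.26 CPM per kilobase, with every neighbour overlapping the next. The order of the last genes differed between genotypes: in control mice *Rictor* had the lowest mean in LECs (2.90, against 3.11 for *Tsc1*) and *Rptor* in BECs (2.06, against 2.60 for *Tsc1*). Levels of BECs fell into the same tiers, with *Akt1* at 26.3 ± 4.99, *Tsc2* at 24.9 ± 3.77 and *Rheb* at 19.6 ± 2.24. *Akt1* exceeded *Tsc2* in only 4 of 7 mice there, and in control BECs *Tsc2* lay higher, at 29.4–30.7 against 20.5–21.9 CPM per kilobase.

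**Figure D1:**
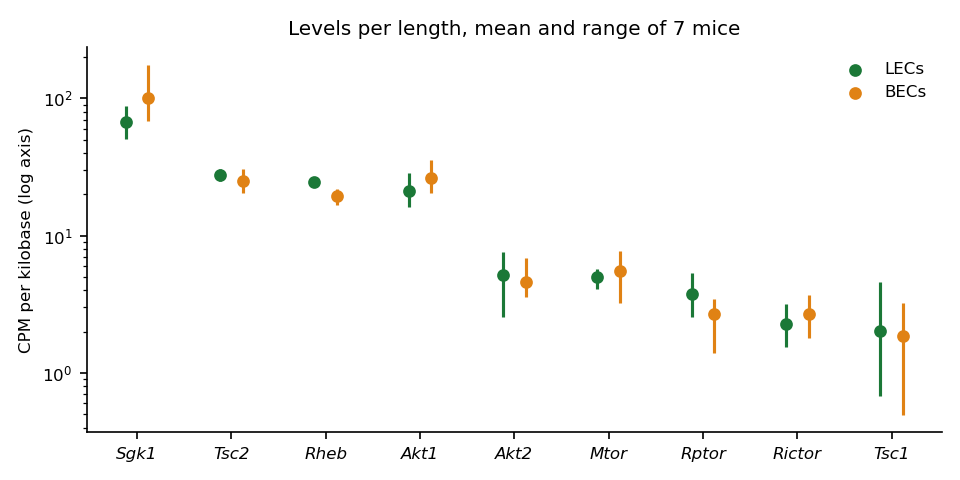
Levels of the 9 genes in CPM per kilobase of summed exon length (log axis), with points for the mean and lines for the lowest and highest of 7 mice, in LECs (green) and BECs (orange). *Sgk1* lay above the other 8 genes in both classes, at means of 67.0 and 100.4 CPM per kilobase, whereas the ranges of *Rptor*, *Rictor* and *Tsc1* at the lower end overlapped.

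The same scale placed *Sgk1* within its family. As the mean of 7 mice, it held 88.9% of the SGK transcripts per length in LECs, where *Sgk3*, an SGK kinase of endosomes, held 10.6%, and 97.6% in BECs, where *Sgk3* held 1.79%. *Sgk1* thus held most of its family in both classes.

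The first question of the design was whether these transcripts differed between LECs of mutant and control mice. The sums took in all LECs of a mouse, whether or not a cell expressed the transgene. The paper reports that most LECs lacked a *Pik3ca* transcript, counting the endogenous and the transgenic one over control and mutant mice. A cell without a transgene read is therefore not shown to be free of the mutation. None of the 9 members passed the test in LECs (edgeR quasi-likelihood test, Benjamini-Hochberg adjusted p under 0.05), where 2.76% of 19758 genes tested were called. None had an unadjusted p under 0.05, against 20.1% of all genes, and DESeq2 called none, against 13.7% of all genes. *Akt1*, a broadly expressed AKT kinase, had 117, 92.9, 82.5, 87.5 and 81.1 CPM in mutants 1–5, and 66.6 and 78.9 CPM in controls 1 and 2. Its mutant values all lay above both controls, by 0.34 ± 0.19 on the log2 scale (SE; 95% interval -0.10 to 0.78, edgeR adjusted p = 0.353). It was the only 1 of 9 members (11.1%) whose groups did not overlap, against 25.5% of all genes tested. *Akt2*, the isoform best known for insulin-driven glucose uptake, had 32.7, 18.3, 53.9, 53.7 and 35.2 CPM in mutants 1–5 and 39.8 and 23.1 CPM in the controls, so that its groups overlapped throughout.

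*Sgk1* in LECs had 294, 328, 317, 360 and 249 CPM in mutants 1–5, and 318 and 432 CPM in controls 1 and 2. The groups overlapped, with a log2 change of -0.28 ± 0.17 (SE; edgeR adjusted p = 0.408). The 2 genes of the TSC complex differed in how well they were measured. *Tsc2*, which carries the activity that turns Rheb off, had 150, 185, 158, 172 and 173 CPM in mutants and 172 and 154 CPM in controls. *Tsc1*, which stabilises Tsc2, was scarce and scattered, with 12.6, 23.9, 25.4, 8.06 and 23.8 CPM in mutants and 19.4 and 54.3 CPM in controls. Its log2 change of -0.97 ± 0.51 (SE; edgeR adjusted p = 0.327) rested on control 2, the highest value, without which it was -0.039. *Rheb* stayed between 174 and 201 CPM in all 7 mice, with a 95% interval of -0.26 to 0.31 for its log2 change.

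The mTOR kinase gene itself, *Mtor*, had 41.4–57.9 CPM in LECs of mutant mice and 46.3 and 53.7 CPM in controls. *Rptor*, the scaffold of mTOR complex 1, had 45.9, 71.8, 46.1, 50.5 and 48.5 CPM in mutants and 34.7 and 59.5 CPM in controls. *Rictor*, the scaffold of mTOR complex 2, had 14.3–25.4 CPM in mutants and 29.8 and 24.3 CPM in controls. Only mutant 4 reached the range of the controls for *Rictor*, and its log2 change was -0.54 ± 0.28 (SE; edgeR adjusted p = 0.323). A change of *Mtor* beyond -0.42 or 0.49 on the log2 scale lay outside its 95% interval, whereas the interval of *Tsc1* ran from -2.15 to 0.20.

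**Figure D2:**
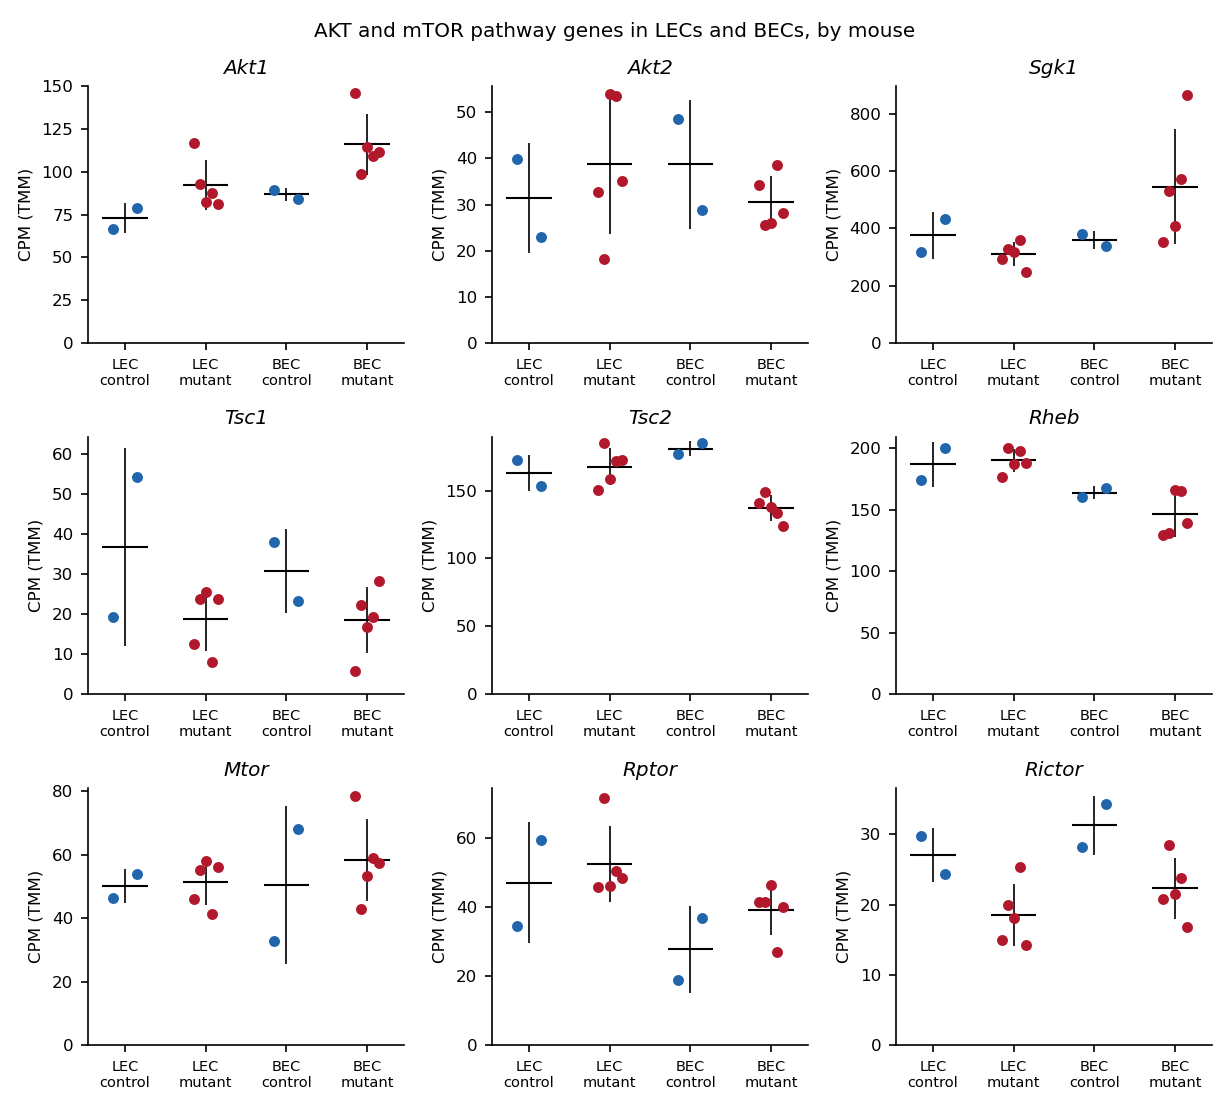
CPM after TMM scaling of each of the 9 genes in LECs and BECs, with 1 point per mouse (blue, 2 controls; red, 5 mutants), a horizontal bar for the mean and a vertical line for ± 1 SD. *Akt1* lay higher in all mutant than in all control mice in both classes and *Tsc2* lower in BECs, whereas the groups of the other genes overlapped.

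The second comparison asked the same of BECs, from the same 7 mice. Again 0 of 9 members passed the edgeR test, where 2.12% of 19315 genes tested were called. An unadjusted p under 0.05 was found for 1 of 9 members, *Tsc2*, against 19.6% of all genes. *Tsc2* had 141, 149, 138, 134 and 124 CPM in mutants 1–5, and 177 and 185 CPM in controls 1 and 2. All mutant values lay below both controls, by 0.40 ± 0.13 on the log2 scale (SE; 95% interval -0.71 to -0.09, unadjusted p = 0.0170, edgeR adjusted p = 0.164). With DESeq2 it passed (adjusted p = 0.0401), the 1 member to do so, against 12.6% of all genes. In GENCODE vM21, the annotation used here for exons, *Tsc2* has 9620 exon bases and shares 693 of them with the neighbouring gene *Pkd1*. The counts came with a length of 6018 bases for *Tsc2*, and whether these hold the shared bases was not tested. If they do, reads there cannot be assigned to either gene without strand. *Akt1* had 146, 98.9, 115, 109 and 112 CPM in mutants and 89.6 and 83.9 CPM in controls, again with no overlap, at a log2 change of 0.42 ± 0.18 (SE; edgeR adjusted p = 0.256). These were the 2 of 9 members (22.2%) without overlap, against 25.1% of all genes.

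*Sgk1* varied widely among the BECs of mutant mice. It had 352, 530, 409, 572 and 865 CPM in mutants 1–5, and 380 and 337 CPM in controls 1 and 2. Mutant 1 lay within the range of the controls and mutant 5 far above the rest, and the log2 change was 0.61 ± 0.32 (SE; edgeR adjusted p = 0.334). Without mutant 5 it was 0.37, and with the plate number series as a block 1.27 (edgeR adjusted p = 0.170), so its size depended on how mutant 5 was weighed. The BECs of mutant 5 also had the highest sum of glucocorticoid-responsive genes among mutants, 742 CPM against 406–557 CPM, while control 1 had 999 and control 2 399 CPM. That list held 6 genes without *Sgk1*, of which 0 passed the edgeR test in BECs and 1 had an unadjusted p under 0.05, and its part in the *Sgk1* values was not tested.

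The remaining members of BECs overlapped between the genotypes. *Rheb* had 130–166 CPM in mutants and 160–167 CPM in controls, *Rictor* 16.8–28.5 and 28.3–34.3 CPM, and *Akt2* 25.7–38.5 and 28.9–48.6 CPM. *Mtor* had 42.8–78.3 CPM in mutants and 32.7 and 68.0 CPM in the 2 controls, and *Rptor* 27.0–46.6 CPM in mutants and 18.8 and 36.8 CPM in controls. *Tsc1* had 5.85–28.3 CPM in mutants and 38.1 and 23.4 CPM in controls. Their log2 changes ran from -0.73 (*Tsc1*) to 0.50 (*Rptor*).

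A direct test asked whether the effect of genotype differed between LECs and BECs, with mouse as a block. It called 0 of 9 members (0.191% of 21933 genes were called), and DESeq2 called 0, against 7.47% of all genes. An unadjusted p under 0.05 was found for 1 member, against 11.5% of all genes. That member was *Tsc2*, with a difference of 0.42 ± 0.16 (SE; unadjusted p = 0.0324, edgeR adjusted p = 0.376). For *Sgk1*, lower in LECs and higher in BECs of mutant mice on average, the difference was -0.83 ± 0.40 (SE; 95% interval -1.75 to 0.10, edgeR adjusted p = 0.491). Both tests rested on the same 5 mutant and 2 control mice.

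**Figure D3:**
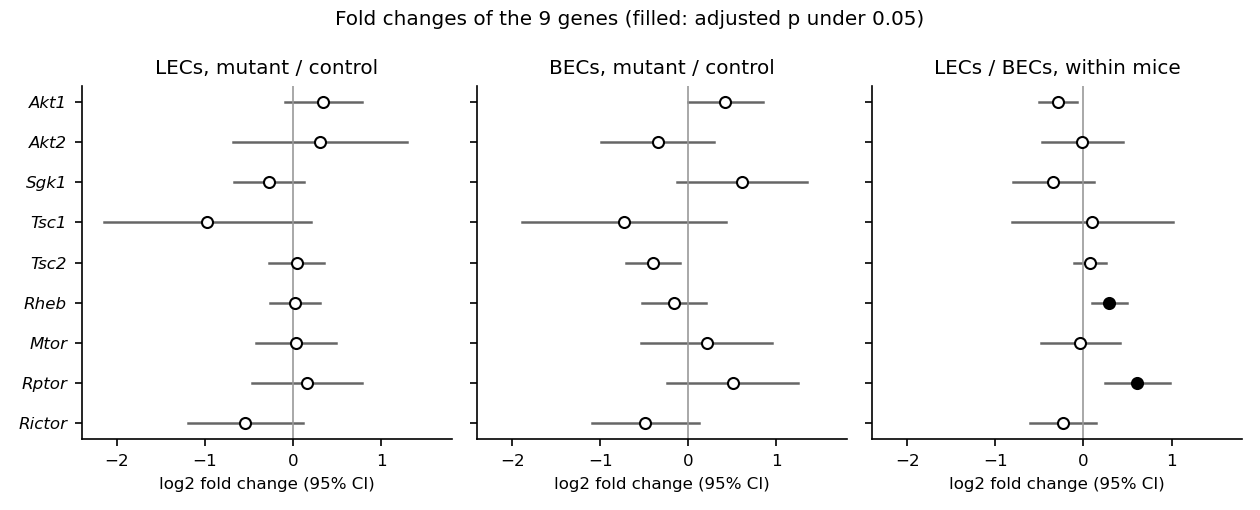
Log2 fold changes of the 9 genes with 95% intervals for mutant over control LECs, mutant over control BECs, and LECs over BECs within mice. Filled points mark an edgeR adjusted p under 0.05, which *Rheb* and *Rptor* reached between LECs and BECs and no gene reached between genotypes.

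How precisely 1 mouse was measured could be seen where a mouse had 2 plates. Over 36 pairs of plates of mutants 3 and 5, the higher value was 1.01 to 3.18 times the lower, with a median of 1.21. *Sgk1* differed by at most 1.25 times and *Akt1* by at most 1.26 times, while *Rptor*, *Tsc1* and *Rictor* reached 3.18, 3.05 and 2.69 times. At most, these 3 scarce members differed more between plates of 1 mouse than their group means did between genotypes. Reads behind a value ranged from 221 for *Tsc1* to 87285 for *Sgk1*, both in BECs.

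The share of cells with a read gave a second view, after thinning each cell to 50000 reads. *Akt1* was found in 54.9%, 34.2%, 41.3%, 40.7% and 40.9% of LECs of mutants 1–5, and in 32.2% and 32.6% of LECs of controls 1 and 2. *Rheb* was found in 76.5–83.4% of mutant and 70.9–71.0% of control LECs. Although the share of *Rheb* was higher in every mutant, its CPM overlapped between the groups, and no order is read from it. In all, 6 of the 18 pairs of gene and cell class did not overlap between genotypes (*Akt1* and *Rheb* in both classes, *Tsc2* in LECs and *Rptor* in BECs), each with a two-sided exact permutation p of 0.0952, the smallest that 21 splits of 5 and 2 mice allow, and 0.286 after Benjamini-Hochberg adjustment over the 18. These were 3 of 9 members in each class, against 29.2% of all genes tested in LECs and 26.5% in BECs. The count depended on the limit. With at least 2 reads it was 9 of 18, with *Mtor* in both classes and *Tsc2* and *Sgk1* in BECs added and *Rptor* lost. These were 4 of 9 members in LECs and 5 of 9 in BECs, against 31.7% and 34.2% of all genes. Without thinning it was 2 of 18, both for *Rictor*, which was then found in fewer mutant cells. This was 1 of 9 members in each class, against 14.7% of all genes in LECs and 15.9% in BECs.

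LECs and BECs of the same mouse were compared next, to ask where the 2 endothelial lineages differ in pathway transcripts. Of the 9 members, 2 passed the test (22.2%), at about the share of all genes, 20.8% of 21933. *Rptor* was higher in LECs, with 46.1 against 42.3, 73.2 against 41.0, 46.6 against 47.4, 50.0 against 27.3 and 47.8 against 39.8 CPM in LECs and BECs of mutants 1–5, and 34.7 against 18.5 and 59.1 against 36.1 CPM in controls 1 and 2. It was higher in 6 of 7 mice, by 0.61 ± 0.16 on the log2 scale (SE; edgeR adjusted p = 0.0294). The call was kept under 12 of 17 alternatives, and lost with thinned cells (edgeR adjusted p = 0.0591) and without mutant 2, mutant 5, control 1 or control 2 (0.0503–0.151). *Rheb* was higher in LECs in 7 of 7 mice, at 174–205 against 130–169 CPM, by 0.29 ± 0.09 (SE; edgeR adjusted p = 0.0453). This call was kept under 1 of 17 alternatives only, DESeq2, and leaving out any 1 mouse moved the edgeR adjusted p to 0.0512–0.211.

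*Akt1* pointed the other way. Its ratio of LECs to BECs was 0.795, 0.969, 0.716, 0.781 and 0.719 in mutants 1–5 and 0.756 and 0.953 in controls 1 and 2, so it was lower in LECs of 7 of 7 mice. At a log2 change of -0.29 ± 0.10 (SE) it missed the threshold (edgeR adjusted p = 0.0696), and 3 of 17 alternatives called it, among them DESeq2 at 0.0103. *Sgk1* was lower in LECs of 6 of 7 mice, with a ratio from 0.285 in mutant 5 to 0.851 in control 1, but higher in control 2, at 429 against 330 CPM (edgeR adjusted p = 0.294). The other 5 members had edgeR adjusted p from 0.375 to 1.

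The other genes of the pathway were compared in the same way. Of 79 other genes of the pathway in 9 lists, 78 were tested and 20 passed, 13 higher and 7 lower in LECs (25.6%, against 20.8% of all genes). The list of SGK kinases and PDK1 held 1 higher gene of 3. *Sgk3* had 69.6–145 CPM in LECs and 12.3–37.8 CPM in BECs, a log2 change of 2.24 (edgeR adjusted p = 0.000362), and its ranges did not overlap. Of 8 further subunits and chaperones of the mTOR complexes, 1 passed: *Deptor*, an inhibitor of mTOR that binds both complexes, had 2.92–20.5 CPM in LECs and 74.2–158 CPM in BECs (log2 change -3.45). *Tbc1d7*, the third subunit of the TSC complex and 1 of 2 genes of its list, was 1.08 higher in LECs on the log2 scale, a call lost without control 1 (edgeR adjusted p = 0.0647).

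Genes that sense amino acids and place mTOR complex 1 on the lysosome followed. Of 10 genes of the Rag GTPases and Ragulator, *Rragc* (log2 change 0.94) and the Ragulator subunit *Lamtor1* (0.50) were higher in LECs. *Rragb* passed as lower at very low levels, 0 to 0.0610 CPM in LECs and 0 to 3.85 CPM in BECs, so no fold is given. Of 16 genes of GATOR, KICSTOR and folliculin, 3 were higher in LECs: *Sec13*, a GATOR subunit shared with vesicle coats, by 0.31, the folliculin partner *Fnip2* by 0.86 and *Castor2*, of the arginine-sensor family, by 1.76. These 3 calls were kept under 13, 7 and 8 of 17 alternatives. *Sec13* lost its call without either control (edgeR adjusted p = 0.0555 and 0.0700), *Castor2* without mutant 3, mutant 5 or either control (0.0819–0.170), and *Fnip2* without mutant 2, 3 or 5 or either control (0.0552–0.144).

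Among 14 effectors of mTOR complex 1, *Tfeb*, a transcription factor of lysosome genes, was the 1 that passed, 2.11 higher in LECs. Among 11 stress inhibitors and feedback regulators 2 were higher and 3 lower. *Sesn1*, an inhibitor of the amino acid branch, was 1.62 higher and *Trib3*, a stress-induced pseudokinase that binds AKT, 1.13 higher in LECs. *Phlpp1*, a phosphatase of AKT, was 2.05 lower and *Grb10*, an adaptor that dampens insulin signals, 0.40 lower on the log2 scale. The size for *Phlpp1* rested on the controls, at -1.29 without control 1 and -2.82 without control 2, with the call kept. *Trib3* and *Grb10* needed both controls, since without either 1 the edgeR adjusted p was 0.0544 to 0.0805. The AMPK list gave *Prkag2* as 1.82 higher and *Prkab1* as 1.31 lower, both subunits of the energy sensor that restrains mTOR complex 1.

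Of 7 substrates of AKT and SGK1, 3 differed between LECs and BECs. *Tbc1d4*, through which AKT2 controls glucose transporter traffic, was 2.45 higher in LECs, as the mean of unlike contrasts in mutant and control mice. It had 46.3–86.6 CPM in LECs and 25.2–42.2 CPM in BECs of mutants. In controls 1 and 2 it had 97.5 against 5.04 and 93.9 against 8.55 CPM, a larger contrast. *Gsk3b*, a kinase that AKT inhibits, was 0.33 higher, and the ubiquitin ligase gene *Nedd4l*, which SGK1 acts on, 1.14 lower. The last 2 lost their calls without single mice: *Gsk3b* without any mouse but mutant 1 or control 1 (edgeR adjusted p 0.0525–0.226), and *Nedd4l* without mutant 2 or either control (0.0540–0.150).

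**Figure D4:**
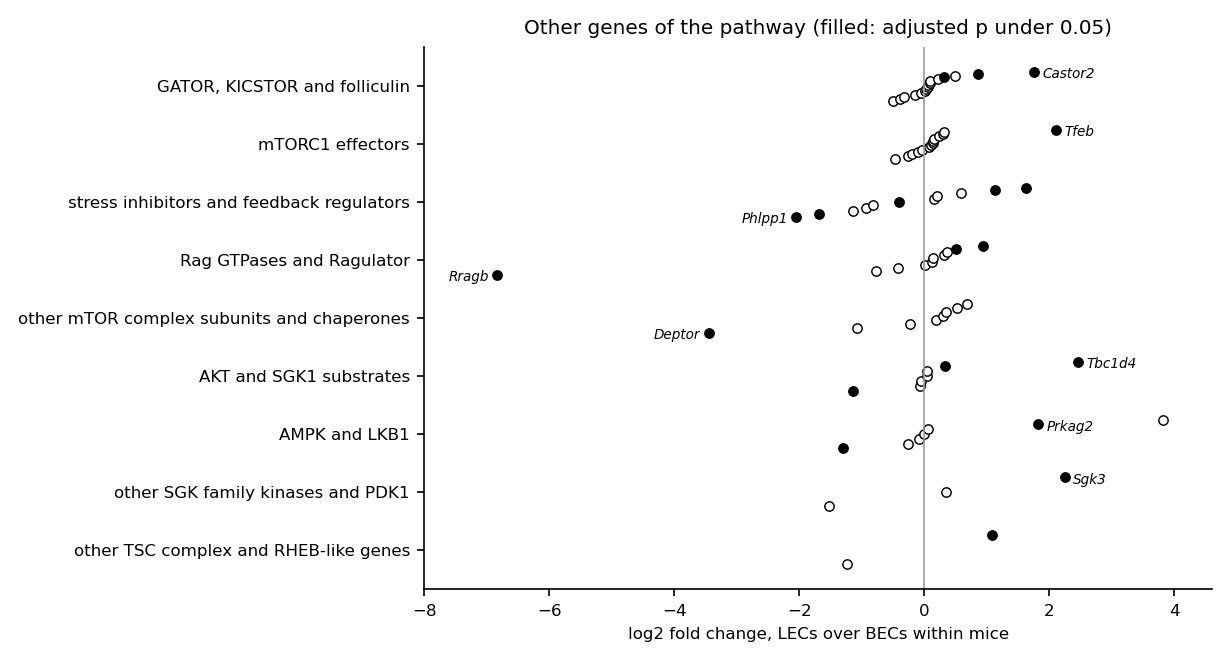
Log2 fold changes of LECs over BECs within mice for the 78 other pathway genes tested, grouped by list on the vertical axis, with filled points for an edgeR adjusted p under 0.05 and names for called genes beyond 1.7. *Deptor* (-3.45) and *Phlpp1* (-2.05) lay lowest apart from *Rragb*, whose point rests on values at or near 0 CPM in LECs, and *Tbc1d4* (2.45), *Sgk3* (2.24) and *Tfeb* (2.11) highest among those that passed. The point of *Tbc1d4* is the mean of a larger contrast in control and a smaller one in mutant mice.

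Between genotypes few genes of these lists passed. In LECs 1 of 77 genes tested passed (1.3%, against 2.76% of all genes). This was *Pdcd4*, an inhibitor of translation that is degraded after S6 kinase acts on it, with 55.3, 37.7, 39.0, 38.6 and 44.8 CPM in mutants 1–5 and 99.1 and 86.5 CPM in controls 1 and 2. It was lower in mutant LECs by 1.11 ± 0.20 on the log2 scale (SE; edgeR adjusted p = 0.0297), and in BECs its groups overlapped at 46.6–76.9 and 62.2–75.9 CPM. The call was kept under 9 of 19 alternatives. It was lost without mutant 2, 3 or 4 or either control (edgeR adjusted p 0.0560–0.0980), and was 0.150 without cycling cells and 0.243 with plate series as a block.

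In BECs 1 of 78 genes passed, against 2.12% of all genes. An unadjusted p under 0.05 was found for 15.4% of the 78, against 19.6% of all genes. The 1 that passed was *Tbc1d4*, with 41.6, 32.4, 31.6, 27.2 and 25.4 CPM in mutants 1–5 and 5.12 and 8.72 CPM in controls 1 and 2. Every mutant was above both controls, by 2.19 ± 0.35 on the log2 scale (SE; edgeR adjusted p = 0.0213). Groups without overlap, in either direction, were found for 25.1% of all genes. In LECs *Tbc1d4* had 47.0–86.1 CPM in mutants and 94.6–97.5 CPM in controls. The difference between the effects of LECs and BECs was -2.82 ± 0.28 (SE; edgeR adjusted p = 0.0148). The call in BECs was lost without mutant 2, mutant 3 or control 1 (edgeR adjusted p 0.0570–0.0662), with a marker sum of at least 100 CPM (0.0561), without cells with both marker sums (0.0571), and with plate series (0.182) or replicate number (0.260) as a block. That of the difference was lost without mutant 1, 3 or 4 or either control (0.0564–0.0671), without cells with both marker sums (0.105) and without cycling cells (0.0653).

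The members were last compared among LECs of the same mouse, where *Sgk1* stood out. *Sgk1* is best known as a gene induced by glucocorticoids and serum. Of 18 RefSeq promoters of the 9 members (250 bases before to 50 after a start site), 6 belonged to *Sgk1*. The windows shown are those of *Sgk1* that hold a glucocorticoid response element (AGAACA, any 3 bases, TGTTCT, both strands) or an E-box (CACGTG, a palindrome), given because *Sgk1* is the member on which the results within LECs turn, with the match in capitals, on the plus strand of GRCm38.p6, 5′ to 3′.
*Sgk1*, chr10:21993690-21993719, response element: tttatgcggaaAGAACAGAATGTTCTcgga
*Sgk1*, chr10:21993640-21993660, E-box: tcctCACGTGttcttggcatg
The response element occurred in 3 of 32851 promoters of all genes (0.00913%), 1 of them of *Sgk1*, where it began 189 bases before the start site. The E-box was in 7.15% of all promoters and in 2 of the 18, the other being that of *Rheb*. A FOXO motif (GTAAACA, both strands) was in 3.65% of all promoters and 1 of the 18, of *Akt1*, and an AP-1 motif (TGANTCA, both strands) in 7.81% and 0 of the 18. A match is a description of letters and not a measured binding site.

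Cycling LECs had less *Sgk1* than other LECs. Cells in which 3 or more of 7 cell cycle genes had a read after thinning numbered 253 of 1283 mutant LECs, 24 to 92 a mouse, and only 4 in control mice, so mutant mice alone were compared. *Sgk1* had 191, 159, 134, 176 and 139 CPM in cycling LECs of mutants 1–5, and 344, 373, 342, 399 and 274 CPM in their other LECs. No value of one kind reached the other, and the log2 change was -1.12 ± 0.10 (SE; edgeR adjusted p = 0.00107), lower in 5 of 5 mice. *Sgk1* was the 1 of 9 members that passed (11.1%), against 6.98% of 16065 genes, and kept its call under 16 of 16 alternatives. Cycling cells held a median of 392196 reads and 7053 genes, and other mutant LECs 334948 reads and 5885 genes. Thinning all cells to the same depth kept the call. The other 8 members had log2 changes from -0.51 to 0.14. Of the 12 immediate-early genes 0 passed the edgeR test and 1 had an unadjusted p under 0.05, and of the 6 glucocorticoid-responsive genes 1 passed, as lower. Several endothelial markers moved with *Sgk1*: 3 of 3 LEC and 2 of 3 BEC genes of the rule, 2 of 5 other LEC markers and 2 of 4 pan-endothelial markers passed as lower, and 1 of 5 other BEC markers as higher. Their part in the *Sgk1* result was not tested.

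LECs with *Ptx3*, the pentraxin gene by which the study marks an immune-interacting capillary LEC state, were lower in *Sgk1* and *Tsc1*. Cells with more than 1 *Ptx3* read after thinning numbered 573 mutant LECs, 66 to 195 a mouse. Their *Sgk1* was 178, 146, 273, 281 and 195 CPM in mutants 1–5, and that of *Ptx3*-negative LECs 382, 442, 347, 432 and 296 CPM. No value of one kind reached the other, and *Sgk1* was lower in 5 of 5 mice, by 0.85 ± 0.17 on the log2 scale (SE; edgeR adjusted p = 0.0329). *Tsc1* had 9.12, 13.4, 16.6, 4.94 and 17.8 CPM in *Ptx3*-positive and 15.3, 30.6, 32.0, 11.1 and 29.4 CPM in *Ptx3*-negative LECs, lower in 5 of 5 mice, by 0.96 ± 0.22 (SE; edgeR adjusted p = 0.0472). These were 2 of 9 members (22.2%), against 6.09% of 15805 genes.

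Both calls were near the threshold. That of *Sgk1* was kept under 9 of 16 alternatives and lost without mutant 1, 2, 4 or 5 (edgeR adjusted p 0.0506–0.106), and that of *Tsc1* was kept under 5 of 16 and lost without any 1 mouse (0.0891–0.139). Cycling cells made up 25.5% of *Ptx3*-positive and 15.1% of *Ptx3*-negative mutant LECs. Without cycling cells, and with thinned cells, the call of *Sgk1* was kept. *Cldn11*-high cells, described next, made up 8.90% and 19.4%, and without them the change of *Sgk1* was -0.66 (edgeR adjusted p = 0.0671). In control mice, with 14 and 49 *Ptx3*-positive LECs and no test, *Sgk1* was 189 against 326 and 394 against 483 CPM, and *Tsc1* 14.1 against 19.6 and 48.7 against 61.1 CPM, in positive against negative cells of controls 1 and 2.

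*Sgk1* was higher in LECs with at least 300 CPM of *Cldn11*, a claudin gene of lymphatic valves. These were 231 LECs, 19 to 57 a mouse. *Sgk1* had 553, 588, 434, 679 and 589 CPM in *Cldn11*-high LECs of mutants 1–5, and 477 and 737 CPM in those of controls 1 and 2. Their other LECs had 215, 279, 285, 317 and 205 CPM in mutants and 298 and 394 CPM in controls, so each *Cldn11*-high value was above each other value. The log2 change was 1.04 ± 0.12 (SE; edgeR adjusted p = 0.00398), higher in 7 of 7 mice, while the median of all genes was -0.32. *Sgk1* was again the 1 of 9 members that passed (11.1%), against 1.43% of 19430 genes. Of 18 alternatives 17 kept the call, and without cells with both marker sums the change was 0.70 (edgeR adjusted p = 0.276). The study counts *Sgk1* among its valve LEC genes from these same cells, so its direction is not independent evidence. *Cldn11*-high cells made up 7.51% of cycling and 16.5% of other mutant LECs, so the classes compared here are not independent of each other.

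**Figure D5:**
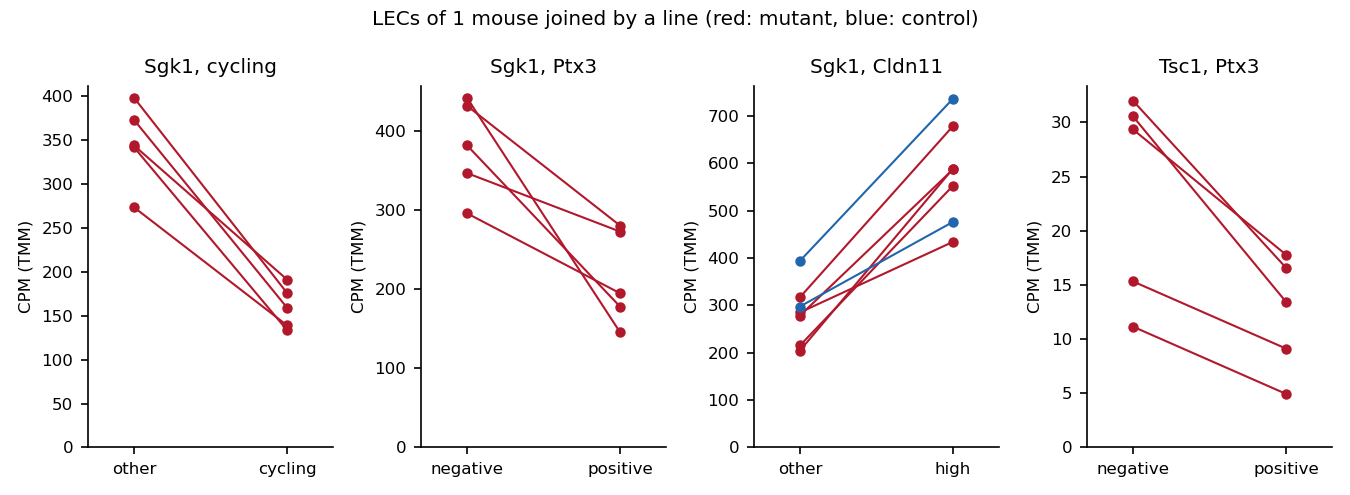
CPM of *Sgk1* in cycling and other, *Ptx3*-positive and -negative, and *Cldn11*-high and other LECs, and of *Tsc1* in *Ptx3*-positive and -negative LECs, with a line joining the values of 1 mouse (red, mutant; blue, control). Every line falls for cycling and *Ptx3*-positive cells and rises for *Cldn11*-high cells, from 205–394 to 434–737 CPM.

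Among other pathway genes, 4 of 74 tested passed between *Ptx3*-positive and -negative mutant LECs (5.41%, below the 6.09% of all genes). *Telo2*, a chaperone of mTOR and related kinases, was 0.87 higher on the log2 scale, while *Sgk3* was 0.76 lower, *Trib3* 0.96 lower and *Ndrg1*, an SGK1 substrate, 0.55 lower. *Telo2* lost its call without any 1 mouse (edgeR adjusted p 0.0647–0.107), *Sgk3* without mutant 3, 4 or 5 (0.0605–0.0675) and *Ndrg1* without mutant 2, 3 or 5 (0.0513–0.0715). *Trib3* kept its call without single mice, but lost it with any *Ptx3* read as the limit (edgeR adjusted p = 0.0564), and without cells with both marker sums its change was 0.26, in the other direction (0.881). The other 3 lost their calls without those cells as well (0.171–0.692). *Telo2* and *Sgk3* also lost theirs with any *Ptx3* read and without *Cldn11*-high LECs, *Telo2* with thinned cells, and *Ndrg1* without cycling LECs. In cycling mutant LECs 4 of 75 passed (5.33%, below the 6.98% of all genes): *Eif4e*, the cap-binding translation factor, was 0.56 higher, and *Sesn1* 1.68, *Trib3* 1.19 and *Ndrg1* 0.65 lower. *Eif4e* and *Ndrg1* lost their calls without mutant 1, 2, 3 or 4 (0.0566–0.0792 and 0.0739–0.127). Without cells with both marker sums the calls of *Eif4e*, *Ndrg1* and *Trib3* were lost, that of *Trib3* at 0.522, and with at least 2 cell cycle genes as the limit those of all 4 were. In *Cldn11*-high LECs edgeR called 0 of 77 pathway genes, while 17 had an unadjusted p under 0.05 (22.1%, against 16.4% of all genes) and DESeq2 called 13 (16.9%, against 12.5%).

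The genes whose levels followed *Sgk1* most closely over the 14 sums, 1 each of LECs and BECs of 7 mice, were *Pafah1b3* (Pearson's r = 0.84), *Qsox1* (0.84) and *Atp2b4* (0.81), of 10617 genes compared. The sums share mice and the difference between LECs and BECs. Within the 7 LEC sums the values were 0.65, 0.07 and 0.65, and within the 7 BEC sums 0.84, 0.94 and 0.83.

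By GRCm38 coordinates, *Akt1* lies at chr12:112653821-112674884, *Akt2* at chr7:27591552-27640826, *Sgk1* at chr10:21882184-21999903, *Tsc1* at chr2:28641228-28691167 and *Tsc2* at chr17:24595816-24632630. *Rheb* lies at chr5:24802823-24842624, *Mtor* at chr4:148448611-148557683, *Rptor* at chr11:119602905-119899576 and *Rictor* at chr15:6708379-6800401. Exons of *Rptor* share 84 bases with the antisense gene *Rptoros*. Called genes of the pathway lists also share exon bases with other genes in GENCODE vM21. The shared part was 18.7% for *Lamtor1*, 14.5% for *Prkag2*, 8.43% for *Ndrg1* and 7.90% for *Rragc*, and at most 3.41% (*Deptor*) for the rest. Its part in their results was not tested.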

How the data were processed

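The deposited files hold raw read counts per gene and well. Per the methods, the authors aligned Smart-Seq2 reads with TopHat2 2.1.1 to GRCm38 plus the chicken *PIK3CA* sequence, removed duplicate reads with SAMtools 0.1.18 and counted what was left with featureCounts, using a gene annotation whose version the sources used here do not give. Wells were kept at 200 or more genes, 50000 or more reads and a mitochondrial share up to 10%, and reads were summed per mouse, cell class and gene. Sums were fitted in edgeR 4.0.16 (R 4.3.3; filterByExpr, TMM, quasi-likelihood F test, Benjamini-Hochberg, called at adjusted p under 0.05), with DESeq2 1.42.0 as an alternative and mouse as a block within mice. Shares of cells were compared by exact permutation over mice. The fits were also run on simulated counts that held no effect of mouse or plate series, so that check does not cover such effects. Symbols and exons came from GENCODE vM21, promoters from RefSeq, GRCm38.p6. The 5 mutant and 2 control mice are replicates, and plates of a mouse were summed. Duplicate reads were removed by position, so highly expressed short genes may be undercounted, and reads are not independent molecules. All 9 members are named, and of each pathway list and comparison at most 4 called genes by lowest p. A gene of the pathway lists is not reported here. Members and lists were chosen with earlier results of these data known. Removal of *Cldn11*-high, cycling or *Ptx3*-positive cells in the comparisons within LECs was added after the data were seen.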

Additional observations from a re-analysis of the deposited data

Results flagged for a closer look

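Of 54 tests for a mouse far from the rest of its group, 2 met the limit, and chance alone gives about 1 in 20. *Rptor* in LECs of mutant mice had 71.8 CPM in mutant 2 against 45.9–50.5 CPM in the other 4, a gap of 0.822 of the whole range. The log2 ratio of *Tsc1* between *Cldn11*-high and other LECs lay far lower in control 1 than in the other 6 mice, with a gap of 0.687 of the range. There 6 reads in 23 cells gave a ratio of 0.0460.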

How the results depend on the processing

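Of 510 log2 changes of members recomputed under alternatives, 450 kept their direction and side of the threshold, and of the 100 that concern called changes 60 did, with none reversed. No member was called between genotypes in LECs under any of 19 alternatives. In BECs DESeq2 called 1. The number called between LECs and BECs (2) was 1 without the filter on low counts, with cells of at least 100000 reads, a marker sum of 100 CPM, first plates only or equal cell numbers, and without cycling cells or cells with both marker sums, 0 with thinned cells, and 0 to 1 without single mice. For *Ptx3* (2) it was 1 without the filter, with thinned cells or without cycling cells, 0 without cells with both marker sums, with any *Ptx3* read or without *Cldn11*-high cells, and 0 to 1 without single mice. For *Cldn11* (1) it was 2 by DESeq2 and 0 without cells with both marker sums. The fold between the highest and lowest member in LECs, 33.1 per length, was 15.6 without division by length, and unthinned shares left 2 of 18 without overlap.

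Changes of members reversed in sign, none of them called, were in LECs *Mtor* (-0.14 thinned, -0.055 with equal cell numbers), *Rheb* (-0.040 thinned, -0.14 without cells with both marker sums), *Rptor* (-0.18 without the latter) and *Tsc2* (-0.084 and -0.24). Without single mice, log2 changes in LECs ran from -0.038 to 0.77 (*Akt2*), -0.044 to 0.15 (*Mtor*), -0.050 to 0.13 (*Rheb*), -0.16 to 0.61 (*Rptor*) and -0.034 to 0.15 (*Tsc2*), and in BECs from -0.66 to 0.083 (*Akt2*) and -0.22 to 0.84 (*Mtor*). For *Ptx3*, *Trib3*, a pathway gene called as lower in the main fit, was 0.26 without cells with both marker sums, where the call was lost. The cause of these changes was not tested.

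With the replicate number as a block, *Akt2* in LECs was -0.31, 0 members were called, and 3 genes in LECs and 0 in BECs were. Deviations of same-numbered mice correlated at -0.047 to 0.107, so they share only a number. Calls over all genes in LECs were 546 by edgeR, 2490 by DESeq2, 109 without cycling cells and 178 with plate series as a block, and in BECs 410, 2238, 309 and 54.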
